A study of Mus musculus with 2 samples.

Results

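Potassium channel genes were examined in neural crest cells sorted from mouse embryonic hearts at stage E14.5. A gene was a member when its transcript cluster on the array was annotated to exactly 1 gene symbol made of Kcn, 1 or 2 lower-case letters (or Kcnip) and a number. With the brightest cluster standing for a gene, 87 of the 19938 genes of the series were members. The rule used names only and no measured difference.

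The genotypes compared were Adam19-/- and Adam19+/+, each together with Wnt1-Cre and R26tdTomato/+ on a C57BL/6 background. All cells therefore carried the Cre driver and 1 copy of the tdTomato reporter, and the label differed in Adam19, which encodes a membrane-anchored metalloprotease. Wnt1-Cre is active in the early neural crest, so red cells in the heart are descendants of crest cells of several later types. They were sorted from collagenase-digested hearts, and their total RNA was measured with 1 Affymetrix Mouse Gene 1.0 ST array per genotype. The sources used here do not say how many embryos were pooled or which part of Adam19 was deleted. Without replicates (n = 1 per genotype) no test was possible, and every difference below is that between 2 samples.

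Potassium channels let potassium leave or enter cells along its gradient and thereby set the resting membrane potential and end action potentials. Voltage-gated, calcium-activated, inward rectifier and two-pore channels are built from different pore-forming subunits, and auxiliary subunits alter their gating and transport to the membrane. In arterial smooth muscle, potassium efflux hyperpolarises the cell and favours relaxation. In autonomic neurons it limits firing, and in cardiomyocytes it shapes repolarisation.

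The arrays differed in several ways that were not specific to channels. The deposited values are on a log scale taken as log2, since the sources used here do not give its base. Adam19 had a log2 signal of 9.77 in Adam19-/- cells against 11.62 in Adam19+/+ cells, 3.60-fold lower. Kdm5d, Uty and Eif2s3y, which are Y-linked, were between 2.25-fold and 3.08-fold lower in the Adam19-/- sample, while Xist was at 11.14 in Adam19-/- against 11.25 in Adam19+/+ cells. Pearson's r between the arrays over 28853 clusters was 0.998. For 571 genes with at least 2 clusters above a log2 signal of 8.01, the median gap between the differences of these clusters was 0.05 (log2), and 95% of the gaps were under 0.24. This gap lies within the arrays and holds no variation between embryos. Several markers of crest derivatives were above that level on both arrays, among them Sox10 of glia at 10.50 in Adam19-/- against 10.45 in Adam19+/+ cells and Phox2a of autonomic neurons at 9.88 in Adam19-/- against 9.70 in Adam19+/+ cells. The glial marker S100b and the melanocyte markers Tyr and Tyrp1 were below it on both arrays. Some markers of cells outside this lineage also passed it by their mean. These were 6 of 8 cardiomyocyte, 2 of 5 endothelial, 4 of 7 leukocyte and 2 of 4 measured erythroid markers. That level is not a limit of detection, so passing it does not settle which cells were present.

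A minority of the potassium channel genes had a mean log2 signal at or above the expression floor. The floor was the median of all genes' mean signal, 8.01 on the log2 scale, which 50% of all genes reach by construction and which is not a limit of detection. It was reached by 25 of the 87 members, or 28.7%. By family, these were 9 of 35 voltage-gated pore subunits, 3 of 15 inward rectifiers, 5 of 14 two-pore channels, 1 of 8 calcium- or sodium-activated channels and 7 of 15 auxiliary subunits. Probes of different genes differ in how well they bind, so a signal places a gene only roughly, and levels of different genes are not ranked here. The members just inside the floor by mean signal were Kcnd1 at 8.02, Kcnmb2 at 8.06, Kcna1 at 8.13 and Kcnb2 at 8.20. Those just outside were Kcnh8 at 7.98, Kcns3 and Kcnq3 at 7.96 and Kcnj2 at 7.77. Of the members, 23 exceeded the floor on both arrays and 5 on the Adam19-/- array alone, namely Kcnd1, Kcnmb2, Kcnh8, Kcns3 and Kcnq3. None exceeded it on the Adam19+/+ array alone. The median signal of all genes was itself above the floor in Adam19-/- cells, at 8.03, and below it in Adam19+/+ cells, at 7.98. Whether the members differed from other genes in this respect was not tested.

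**Figure D1:**
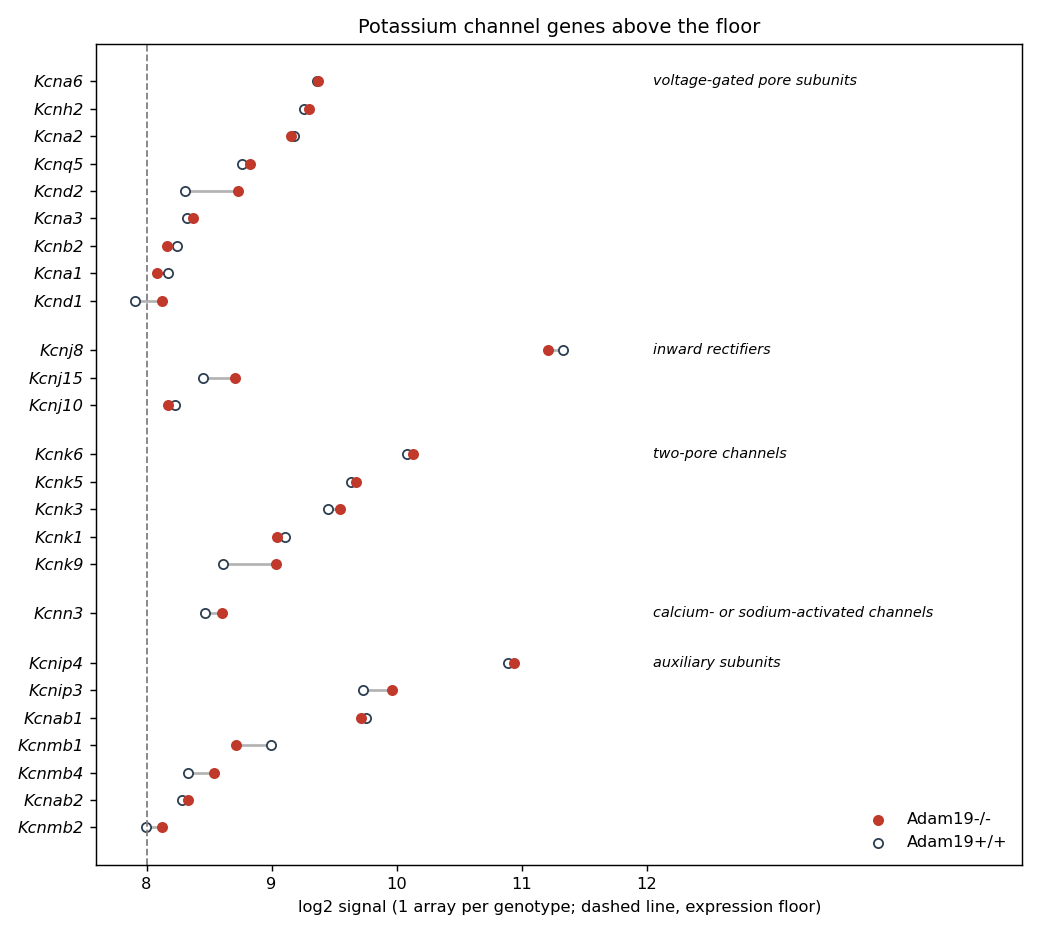
Log2 signal (horizontal axis) of the 25 potassium channel genes whose mean reached the expression floor, by family. Filled red points are the Adam19-/- array and open points the Adam19+/+ array, 1 array each, and Kcnd2, Kcnk9 and Kcnmb1 have the widest gaps between their points, at 0.42, 0.43 and 0.27 on the log2 scale.

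Between genotypes the potassium channel genes differed little as a group, and few single genes reached 1.2-fold. Among the 25 members above the floor, 17 were higher and 8 lower in Adam19-/- cells, with a median difference of 0.05 on the log2 scale. Over all 9969 genes above the floor the median was 0.04, with 65.1% higher and 33.8% lower. Centring on a lowess curve over signal removes the shift shared by genes of like signal, and the members' median was then -0.0039. The group shift was thus close to that of other genes of like signal. The members' median stayed positive under quantile normalisation (0.0113), median centring (0.0414), averaging of clusters (0.0484) and an offset of 32 on the linear signal (0.044). At a threshold of 1.2-fold, Kcnd2 and Kcnk9 were higher, against a background of 3.76% of all genes above the floor, and Kcnmb1 was lower, against 1.05%. At those shares 0.94 and 0.263 of 25 genes would pass. These counts of 2 and 1 are too small to say anything of the group. No member reached 1.5-fold in either direction, a size reached by 0.155% of all genes upwards and 0.0552% downwards.

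Below the floor 62 members remained, and the numbers past 1.2-fold were close to those of other dim genes. In this group 32 were higher, 18 lower and 12 had exactly equal values on both arrays. Among all genes below the floor 38.2% were higher, 34.5% lower and 27.3% exactly equal. At 1.2-fold, 4 members were higher (Kcnj2, Kcna5, Kcnv2 and Kcnip1) against 6.37% of dim genes, and Kcnn4 alone was lower against 2.99%. At those shares 3.95 and 1.85 of 62 would pass. With an offset of 32 on the linear signal Kcna5, Kcnip1 and Kcnv2 fell short of 1.2-fold. No member above the floor had equal values on the arrays, against 1.08% of all genes there.

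**Figure D2:**
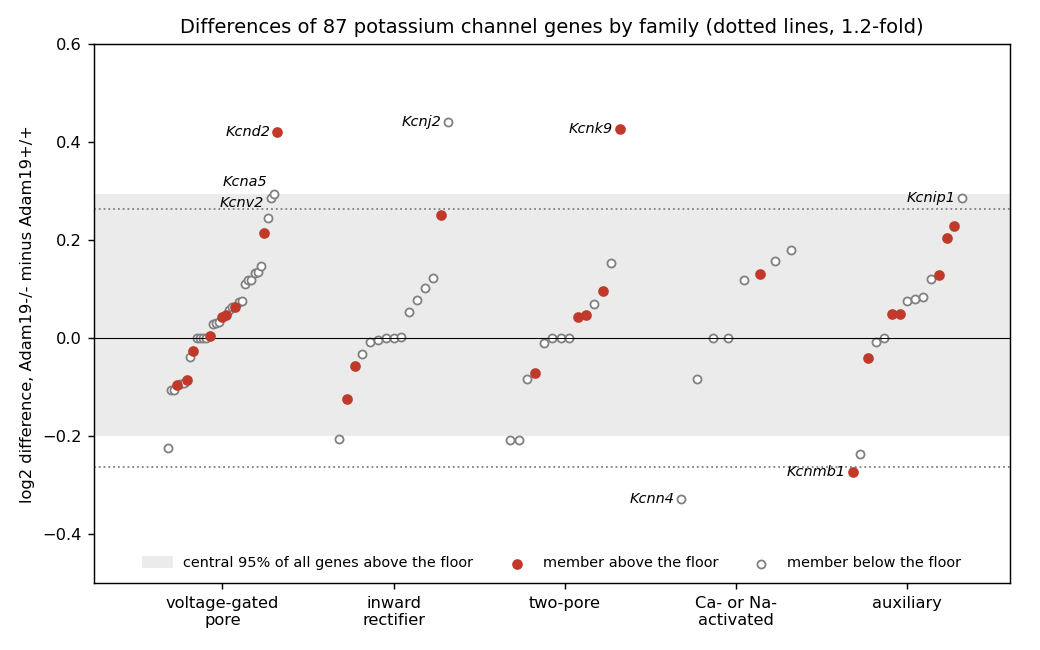
Difference in log2 signal, Adam19-/- minus Adam19+/+, for each of the 87 potassium channel genes, by family and in order of size. Red points lie above the expression floor and open points below it, the grey band from -0.20 to 0.29 is the central 95% of all genes above the floor, and Kcnd2, Kcnk9 and Kcnmb1 are the 3 red points outside it.

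The sequences around the transcription start are shown for Kcnd2 and Kcnj2, which were higher, and for Kcnmb1 and Kcnj8, which were lower, as examples picked after the values were seen. Of these, Kcnj2 lies below the floor and Kcnj8 differed by less than 1.2-fold. Each runs 5′ to 3′ from 250 bases before to 50 after the start given by RefSeq on build GRCm38.p6. Capitals mark the letters ACGTG on either strand, the core of the site that hypoxia-inducible factors bind.
Kcnd2, chr6:21215096-21215395, + strand: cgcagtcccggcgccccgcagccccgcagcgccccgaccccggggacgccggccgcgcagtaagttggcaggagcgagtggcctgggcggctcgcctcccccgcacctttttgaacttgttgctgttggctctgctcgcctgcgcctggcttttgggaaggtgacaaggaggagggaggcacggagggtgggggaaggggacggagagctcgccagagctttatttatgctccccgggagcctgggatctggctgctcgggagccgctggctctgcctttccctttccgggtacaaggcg
Kcnj2, chr11:111065914-111066213, + strand: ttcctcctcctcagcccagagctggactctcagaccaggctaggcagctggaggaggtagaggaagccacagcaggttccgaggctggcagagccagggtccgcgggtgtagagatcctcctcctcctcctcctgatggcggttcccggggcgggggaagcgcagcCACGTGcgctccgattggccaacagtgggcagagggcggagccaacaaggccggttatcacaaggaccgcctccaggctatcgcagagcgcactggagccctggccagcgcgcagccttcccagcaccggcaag
Kcnmb1, chr11:33962763-33963062, + strand: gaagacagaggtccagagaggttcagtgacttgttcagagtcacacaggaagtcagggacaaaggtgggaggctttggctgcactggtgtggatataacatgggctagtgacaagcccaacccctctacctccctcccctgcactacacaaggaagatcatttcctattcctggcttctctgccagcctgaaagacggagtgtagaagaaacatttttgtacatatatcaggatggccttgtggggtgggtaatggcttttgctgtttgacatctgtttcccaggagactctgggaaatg
Kcnj8, chr6:142571565-142571864, - strand: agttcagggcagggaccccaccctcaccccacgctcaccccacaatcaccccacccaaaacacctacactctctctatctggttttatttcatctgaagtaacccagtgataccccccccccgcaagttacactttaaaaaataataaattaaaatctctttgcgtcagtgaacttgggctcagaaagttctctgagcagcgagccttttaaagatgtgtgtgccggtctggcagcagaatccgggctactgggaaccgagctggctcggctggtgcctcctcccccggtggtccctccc

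Among these 4 windows, ACGTG was found in that of Kcnj2, where the matches on the + and - strands overlap in a palindrome. Searched on both strands, ACGTG was in 16.5% of the 91 promoters of 66 members that had an entry and in 19.6% of all 32851 promoters. TATAAA was in 5.49% of member promoters and 13.6% of all. The CArG box, which binds serum response factor at smooth muscle genes, was in none of the 91 member promoters and in 1.63% of all, and no match says only that these letters are not in the window. The G and C content was 68.7% for Kcnd2 and 66.7% for Kcnj2, and 49.7% for Kcnmb1 and 53.3% for Kcnj8. The median was 58.0% over 27 promoters of members above the floor, 57.8% over 64 of members below it, and 52.7% over all promoters.

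Among the voltage-gated pore subunits, all 3 Kcnd genes were higher in Adam19-/- cells. They encode Kv4 channels, which carry the fast transient outward current of neurons and cardiomyocytes. Kcnd2 had a log2 signal of 8.73 in Adam19-/- cells against 8.31 in Adam19+/+ cells, which is 0.42 on the log2 scale or 1.34-fold higher. This was the 62nd largest increase of the 9969 genes above the floor. Kcnd1, on the X chromosome, was at 8.12 in Adam19-/- against 7.91 in Adam19+/+ cells, a difference of 0.21. Kcnd3 lay below the floor at 7.63 in Adam19-/- against 7.50 in Adam19+/+ cells, a difference of 0.13. The increases thus ran from 0.13 to 0.42.

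The auxiliary KChIP subunits, calcium-binding proteins that attach to Kv4 channels and raise their surface number, were also higher. Kcnip3, which in addition acts as the transcriptional repressor DREAM, was at 9.96 in Adam19-/- cells against 9.73 in Adam19+/+ cells, a difference of 0.23. Kcnip4 was at 10.94 in Adam19-/- against 10.89 in Adam19+/+ cells, a difference of 0.05. Below the floor, Kcnip1 was at 7.90 in Adam19-/- against 7.62 in Adam19+/+ cells, a difference of 0.29, and Kcnip2, the KChIP of cardiac muscle, was at 5.83 in Adam19-/- against 5.76 in Adam19+/+ cells. Together the 7 Kcnd and Kcnip genes had a median difference of 0.21, all of them higher, and all 7 remained higher under quantile normalisation, both ways of centring, averaging of clusters and an offset of 32. This grouping was made after the values were seen and carries no test, and the rescalings use the same 2 arrays. Of the 7 genes, 4 lay above the floor, where 65.1% of all genes were higher. The others lay below it, where 38.2% of all genes were higher. Of the further partners of Kv4 channels, the dipeptidyl-peptidase-like subunit gene Dpp10 was higher by 0.34 and Dpp6 was lower at -0.13, both below the floor.

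Values of cell type markers are set beside these genes. Of 7 autonomic neuron markers, all above the floor, 5 were higher and 2 lower (4 and 3 after median or lowess centring), and the median was 0.18. Th and Dbh, enzymes of catecholamine synthesis, led with differences of 0.46 and 0.43, whereas Stmn2 was at -0.02 and Prph at -0.11. Their summed linear signal was 13601 in Adam19-/- cells against 12606 in Adam19+/+ cells. Of 8 cardiomyocyte markers 5 were higher and 2 lower, the median was 0.09, and the summed signals were 4948 on the Adam19-/- array against 4714 on the Adam19+/+ array. For the 6 of them above the floor the median was 0.04, with 3 higher and 2 lower, and it was -0.0096 after lowess centring. Myl7, an atrial myosin light chain, differed by 0.78, whereas Tnnt2 and Tnni3, the cardiac troponins, differed by -0.10 and -0.03. None of these markers was at the lowest value of the table on either array. Their part in the Kcnd and Kcnip differences was not tested. In sorted pools, fewer or more cells of a type and less or more RNA per cell cannot be told apart.

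The other voltage-gated pore subunits above the floor lay close to no difference. Kcna6, Kcna3, Kcna2 and Kcna1, Shaker-type subunits that form delayed rectifiers in axons and other membranes, lay between -0.10 and 0.05. Kcna6 was at 9.37 in Adam19-/- against 9.36 in Adam19+/+ cells and Kcna3 at 8.37 in Adam19-/- against 8.33 in Adam19+/+ cells. Kcna2 was at 9.16 in Adam19-/- against 9.18 in Adam19+/+ cells, and Kcna1 at 8.08 in Adam19-/- against 8.17 in Adam19+/+ cells, a difference of -0.10. A dimmer cluster of Kcna2 gave 0.25, so its clusters did not point the same way. Kcnh2, the pore of the rapid delayed rectifier of cardiac repolarisation, was at 9.30 in Adam19-/- against 9.26 in Adam19+/+ cells, and Kcnq5, a subunit of the neuronal M-current, at 8.83 in Adam19-/- against 8.76 in Adam19+/+ cells. Kcnb2, a slow delayed rectifier, was at 8.16 in Adam19-/- against 8.25 in Adam19+/+ cells. The signs of Kcna6, Kcna3 and Kcnh2, and of Kcnk5 and Kcnab2 among the other families, turned after lowess centring, and that of Kcna6 also after quantile normalisation and median centring.

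Of the 26 voltage-gated pore subunits below the floor, Kcna5, Kcnv2, Kcnh1 and Kcng4 differed most. Kcna5, which carries the ultrarapid current of the atrium and is also found in arterial muscle, was at 7.91 in Adam19-/- cells against 7.62 in Adam19+/+ cells, a difference of 0.29. Kcnv2, a silent subunit that modifies other Kv channels, was at 6.51 in Adam19-/- against 6.23 in Adam19+/+ cells. Kcnh1, the ether-a-go-go channel, was higher by 0.24 and the silent subunit Kcng4 was lower at -0.22. The 3 measured Kcnc genes, which serve fast-spiking neurons, lay below the floor with differences from 0 to 0.08. The 4 Kcng genes were lower in 3 cases, with a median of -0.09, and the 3 Kcns genes were higher, with a median of 0.12. The voltage-gated genes below the floor other than Kcna5, Kcnv2, Kcnh1 and Kcng4 lay between -0.11 (Kcnh3) and 0.15 (Kcns1).

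The inward rectifiers held the largest increase and a small decrease in the channel of vascular muscle. Kcnj2, which encodes the strong inward rectifier that holds the resting potential of cardiomyocytes and arterial cells, was at 7.99 in Adam19-/- cells against 7.55 in Adam19+/+ cells. Its difference of 0.44 or 1.36-fold was the largest of all 87 members, and it ranked 103rd among the 9969 dim genes, both signals being under the floor. An offset of 32 on the linear signal, under which dim genes differ less, left 0.3851, below Kcnk9 at 0.3986 and Kcnd2 at 0.3865. Kcnj15 was at 8.70 in Adam19-/- against 8.45 in Adam19+/+ cells, which is 0.25 on the log2 scale or 1.19-fold higher. Kcnj10, the inward rectifier known from glia, was at 8.17 in Adam19-/- against 8.23 in Adam19+/+ cells. Markers of Schwann cells and glia were lower in 5 of 6 cases, with a median of -0.07 and summed signals of 15409.5 on the Adam19-/- array against 16711 on the Adam19+/+ array, and their part in the Kcnj10 value was not tested. The other 11 inward rectifiers, all below the floor, lay between -0.20 (Kcnj13) and 0.12 (Kcnj3).

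Kcnj8, the pore of the ATP-sensitive channel of vascular smooth muscle and pericytes, was well above the floor on both arrays. Its log2 signal was 11.21 in Adam19-/- cells against 11.33 in Adam19+/+ cells, a difference of -0.12, short of 1.2-fold. Abcc9, the sulphonylurea receptor that assembles with it, was at 11.09 in Adam19-/- against 11.26 in Adam19+/+ cells, a difference of -0.17. Kcnj11 and Abcc8, the pore and receptor of the pancreatic and neuronal form, lay below the floor with differences of -0.0076 and -0.01. All 4 genes were lower, by amounts within the central range of all genes, and they were grouped after the values were seen. They stayed lower under every rescaling tried, which adds no support. An offset cannot turn a sign. Quantile normalisation, median centring and lowess centring moved their median further down, from -0.067 to -0.0865, -0.0731 and -0.1008. Of all genes, 33.8% were lower above the floor and 34.5% below it.

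Among the two-pore channels, which carry background potassium current, Kcnk9 differed and its relatives did not reach 1.2-fold. Kcnk9, an acid-sensitive channel that is imprinted in mouse brain, was at 9.04 in Adam19-/- cells against 8.61 in Adam19+/+ cells. The difference of 0.43 or 1.34-fold was the 55th largest increase among the 9969 genes above the floor. Kcnk3, the closely related acid-sensitive channel of pulmonary artery and carotid body, was at 9.55 in Adam19-/- against 9.45 in Adam19+/+ cells. Kcnk5, an alkaline-activated channel, was at 9.67 in Adam19-/- against 9.63 in Adam19+/+ cells, and Kcnk6, a weakly rectifying channel found in arteries, at 10.13 in Adam19-/- against 10.08 in Adam19+/+ cells. Kcnk1 was at 9.04 in Adam19-/- against 9.11 in Adam19+/+ cells, a difference of -0.07. Of the 9 two-pore genes below the floor, Kcnk10 and Kcnk15 both differed by -0.21 and Kcnk13 by 0.15, while 3 had equal values.

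Kcnmb1 was the member above the floor with the largest decrease. It encodes the beta subunit that raises the calcium sensitivity of large-conductance (BK) channels in smooth muscle. Its log2 signal was 8.72 in Adam19-/- cells against 8.99 in Adam19+/+ cells, which is -0.27 or 1.21-fold lower, the 94th largest decrease among 9969 genes. With an offset of 32 the difference was -0.26 and no longer reached 1.2-fold. The pore gene Kcnma1 was below the floor at 7.82 in Adam19-/- against 7.70 in Adam19+/+ cells, a difference of 0.12, and its dimmer cluster was at 5.22 on both arrays. Of the other beta subunits, Kcnmb4, the neuronal form, was at 8.54 in Adam19-/- against 8.33 in Adam19+/+ cells, a difference of 0.21. Kcnmb2 was at 8.12 in Adam19-/- against 7.99 in Adam19+/+ cells, a difference of 0.13, and Kcnmb3, below the floor, differed by -0.24. The BK genes thus lay on both sides, with 3 of 5 higher.

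Smooth muscle markers moved with Kcnmb1 and Kcnj8. All 8 were lower in the Adam19-/- sample, with a median of -0.12, and ranged from -0.25 (Lmod1) to -0.06 (Cnn1). Their summed linear signal was 29807 in Adam19-/- cells against 32430 in Adam19+/+ cells. Acta2, smooth muscle actin, was at 13.62 in Adam19-/- against 13.74 in Adam19+/+ cells and Myh11, smooth muscle myosin, at 10.71 in Adam19-/- against 10.79 in Adam19+/+ cells. Their part in the Kcnmb1 and Kcnj8 differences was not tested. The 10 measured channels assigned to arterial smooth muscle included 7 higher and 3 lower genes, at a median of 0.06. For the 6 of them above the floor, where all 8 markers lay, the median was 0.01, with 3 higher and 3 lower. That median was -0.02 after quantile normalisation and -0.04 after lowess centring. With the clusters of a gene averaged it was 0.06, with 4 higher and 2 lower. Besides Kcnmb1 and Kcnj8, Kcna2 was lower by its brightest cluster (-0.03), but higher at 0.11 with its clusters averaged.

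Kcnmb1 also lies near Adam19 on chromosome 11. Among the members, Kcnmb1, Kcnip1 and Kcnj12 lie within 20 Mb of Adam19, with differences of -0.27, 0.29 and -0.0028. In the RefSeq gene table of GRCm38.p6, Kcnmb1 lies inside the span of Kcnip1 on the opposite strand, and the pair differed in opposite directions. Besides Adam19, 189 genes in this window lay above the floor, Kcnmb1 among them. Of these, 7 or 3.70% were lower by 1.2-fold, Kcnmb1 included, and 11 or 5.82% higher. The shares over all genes above the floor were 1.05% and 3.76%. The median of the 189 genes was 0.03. Nearness to the deleted gene was not tested as a factor in the Kcnmb1 and Kcnip1 differences.

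The calcium-activated channels were represented above the floor by Kcnn3 alone. It encodes a small-conductance channel of neurons and endothelium and was at 8.60 in Adam19-/- cells against 8.47 in Adam19+/+ cells, a difference of 0.13. Kcnn4, the intermediate-conductance channel of red cells, lymphocytes and proliferating smooth muscle, was below the floor at 7.35 in Adam19-/- against 7.68 in Adam19+/+ cells. Its difference of -0.33 or 1.25-fold lower was the largest decrease of all members. On the same arrays all 7 leukocyte markers (6 of 7 after lowess centring) were higher, at a median of 0.39, with summed signals of 2081 on the Adam19-/- array against 1500 on the Adam19+/+ array, and all 4 erythroid markers were higher, with a median of 0.32. The part of these markers in the Kcnn4 value was not tested. Kcna3, a channel of lymphocytes, was at 8.37 in Adam19-/- against 8.33 in Adam19+/+ cells. The sodium-activated channel genes Kcnt1 and Kcnt2 differed by -0.08 and 0.16, both below the floor. Of the other genes of this family below it, Kcnn2 differed by 0.18, and Kcnn1 and Kcnu1 had equal values.

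Of the remaining auxiliary genes, the Kcnab subunits, cytoplasmic partners of Shaker-type channels, differed little. Kcnab1 was at 9.71 in Adam19-/- cells against 9.75 in Adam19+/+ cells, and Kcnab2 was at 8.33 in Adam19-/- against 8.29 in Adam19+/+ cells. The 4 measured Kcne genes, single-span subunits that alter the gating of voltage-gated pores, all lay below the floor with differences from 0 (Kcne1) to 0.12 (Kcne2). Kcnab3, below the floor, differed by -0.0087. Kcne4 was at 7.80 in Adam19-/- against 7.72 in Adam19+/+ cells.

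**Figure D3:**
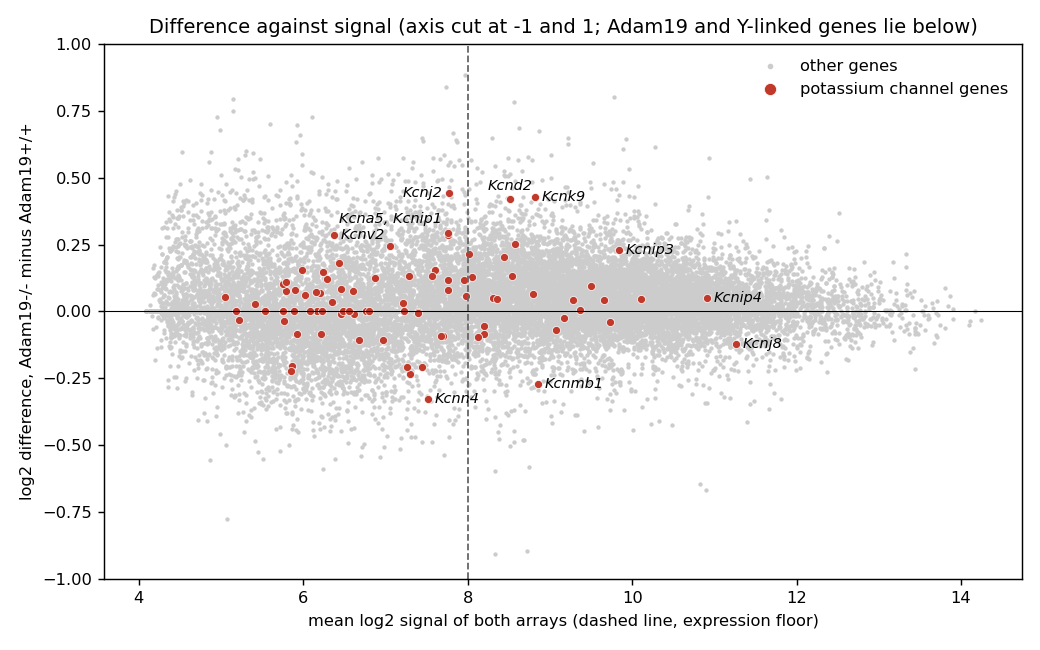
Difference in log2 signal, Adam19-/- minus Adam19+/+, against the mean log2 signal of both arrays. Red points are the 87 potassium channel genes and grey points all other genes, and the dashed line is the expression floor at 8.01. Kcnj2, Kcnk9 and Kcnd2 lie near 0.43 and Kcnn4 and Kcnmb1 near -0.3, all inside the cloud of other genes.

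Channel genes assigned by textbook site lay on both sides of 0 for arterial smooth muscle and neurons, and mostly above it for cardiomyocytes. Of 12 cardiomyocyte channel genes 9 were higher and 2 lower, and the median was 0.08, but only Kcnd2 and Kcnh2 were above the floor. The 2 lower genes, Kcnj11 at -0.0076 and Kcnj12 at -0.0028, were close to no difference and below the floor. Kcnq1 and Kcne1, which form the slow delayed rectifier, lay below it, Kcnq1 at 6.37 in Adam19-/- against 6.34 in Adam19+/+ cells and Kcne1 at 6.16 on both arrays. Of 10 neuronal channel genes 5 were higher and 4 lower, and the median was 0.03. The 7 neuronal genes above the floor had a median of -0.03 (0.06 with the clusters of a gene averaged), with Kcnd2 at 0.42 the exception to values between -0.10 and 0.13. For comparison, the median over all 19938 genes was 0.0061, and 51.7% were higher and 34.1% lower.

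**Figure D4:**
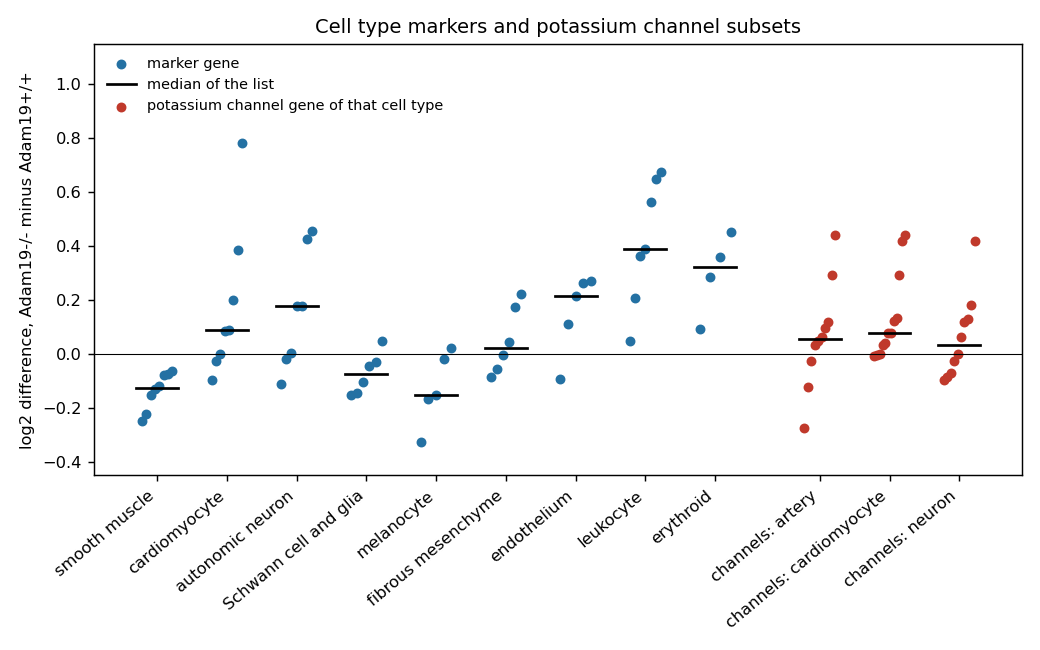
Difference in log2 signal, Adam19-/- minus Adam19+/+, for markers of 9 cell types (blue) and for potassium channel genes assigned to 3 cell types (red), with the median of each list as a bar. All 8 smooth muscle markers lie below 0 and all 7 leukocyte markers above it (6 after lowess centring). The arterial and neuronal channel subsets spread to both sides, and the cardiomyocyte subset lies mostly above 0.

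The markers of 3 further cell types had medians of 0.22 for endothelium (4 of 5 higher), 0.02 for fibrous mesenchyme (3 of 6 higher) and -0.15 for melanocytes (4 of 5 lower, 5 of 5 after quantile normalisation or lowess centring).

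Other genes that move potassium were set beside the channels. Of 15 measured channel partners, 7 were higher, 7 lower and 1 equal. Of the 4 above the floor by mean signal, 2 were higher and 2 lower. The pacemaker channel Hcn4 was at 8.12 in Adam19-/- cells against 7.95, under the floor, in Adam19+/+ cells. The lysosomal channel Tmem175 was at 9.74 in Adam19-/- against 9.68 in Adam19+/+ cells. Abcc9 and Tmem38b were lower, with differences of -0.17 and -0.03. Of 11 measured genes of the sodium-potassium pump and its FXYD regulators, 7 were higher and 3 lower, and the median was 0.04. Fxyd5 was at 10.70 in Adam19-/- against 10.42 in Adam19+/+ cells, which is 0.27 on the log2 scale or 1.21-fold higher, while the beta subunits Atp1b1, Atp1b2 and Atp1b3 differed by -0.01, 0.04 and 0.13. Of 6 cation-chloride cotransporters 2 were higher and 3 lower, and Slc12a2, the sodium-potassium-chloride cotransporter, was at 10.86 in Adam19-/- against 10.78 in Adam19+/+ cells.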

How the data were processed

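The authors deposited signals on a log scale, taken here as log2, per transcript cluster of 2 Affymetrix Mouse Gene 1.0 ST arrays. The sources used here give neither the background correction, normalisation and summarisation nor the log base. The highest value, 14.52, would exceed a 16-bit scanner's range if it were a natural logarithm. Values were not normalised again.

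Of 28853 clusters, 21789 had 1 symbol in the platform annotation of 2016, 1621 several and 5443 none listed. Symbols were updated through Entrez identifiers to the GRCm38.p6 RefSeq table, which 21698 clusters matched. The brightest cluster stood for a gene. Differences are Adam19-/- minus Adam19+/+. Called means 1.2-fold or more, with 1.5-fold also counted. The 1 array per genotype limits precision and allows no p-value.

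Members, lists and thresholds were chosen with earlier results of these data known. Values are named for all members above the floor, the 8 below it with the largest difference, the 4 nearest on each side and members with several clusters. Other named genes were chosen after their values were seen. Steps ran in Python 3.11.15 (pandas 2.3.3, numpy 2.4.6, matplotlib 3.10.9, statsmodels 0.14.6). The choice of the brightest cluster, the 1.2-fold threshold and quantile normalisation were run on a copy of the Adam19+/+ array with planted differences. These held no noise, so the run checks only that the code applies its rules. The other steps were not checked this way. Promoters are from RefSeq.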

Additional observations from a re-analysis of the deposited data

How the results depend on the processing

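Kcnd2 and Kcnk9 were higher by 1.2-fold under all alternatives except the floor at the 75th percentile of all genes, and Kcnmb1 was lower by 1.2-fold except under that floor and with 32 added to the linear signal, which gave it -0.26 and left 0 lower members. The higher floor left 4 members above it, 0 of them past 1.2-fold in either direction. Kcnd2, Kcnk9 and Kcnmb1, with mean log2 signals of 8.52, 8.82 and 8.86, lay under that floor. Without a floor all 87 counted, with 6 higher and 2 lower, against 5.07% and 2.02% of all genes, shares at which 4.41 and 1.76 of 87 would pass. The members' median ranged over the alternatives from -0.0039, after lowess centring, to 0.0485. After lowess centring 5 of 36 named genes changed sign, none of them a called gene. Values of the called genes kept their sign, with Kcnj2 between 0.39 and 0.44 and Kcnn4 between -0.36 and -0.28, both past 1.2-fold throughout. Of the other members below the floor, Kcna5 fell short of 1.2-fold after lowess centring (0.2562) and with the offset (0.2567), Kcnip1 after these (0.2472 and 0.2487) and quantile normalisation (0.2624), and Kcnv2 with the offset (0.2064). No paired analysis was possible because each genotype has 1 array, and leaving out a replicate was not possible either. Dim members are limited by signal over background.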

Other observations

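Several Kcn transcripts fell outside the naming rule. Kcne1l, an X-linked relative of the Kcne subunits, was at 9.10 in Adam19-/- cells against 8.94 in Adam19+/+ cells, a difference of 0.16, and was above the expression floor, unlike the 4 measured Kcne members. The opposite-strand transcripts Kcnmb4os1 and Kcnmb4os2 differed by -0.12 and -0.10, while Kcnmb4 itself differed by 0.21. Kcnd3os was at 7.96 in Adam19-/- against 8.04 in Adam19+/+ cells, a difference of -0.07, while Kcnd3 differed by 0.13. Kcnrg, a regulator of voltage-gated channels, was at 6.62 in Adam19-/- against 6.49 in Adam19+/+ cells. Among members with more than 1 cluster, the clusters of Kcnh8 gave 0.06 and -0.20, those of Kcna2 -0.03 and 0.25, and those of Kcnma1 0.12 and 0.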
